A study of Mus musculus with 47 samples.

Results

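Acyl-CoA thioesterases were followed in 3 tissues of mice with or without a tumour, namely brown fat, white fat and the gastrocnemius, a calf muscle. The 9 genes described are Acot1, Acot2, Acot3, Acot4, Acot7, Acot8, Acot9, Acot11 and Acot13, of 24391 genes in the count tables. They were listed by symbol, and were selected on measured values, since Acot2 and Acot3 were already known to be high in white fat of tumour-bearing mice given control antibody. All 9 had a row in both tables. All 9 passed the low-count filter in white fat, 8 passed in brown fat (all but Acot3) and 7 passed in muscle (all but Acot3 and Acot4).

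Acyl-CoA thioesterases split a fatty acyl-CoA into a free fatty acid and coenzyme A. They act opposite to the acyl-CoA synthetases, which join fatty acid and coenzyme A, and so bear on how much acyl-CoA is open to oxidation, esterification or signalling. The mouse genes fall into unrelated protein families that share the reaction. Acot1 (cytosolic), Acot2 (mitochondrial matrix), Acot3 and Acot4 (peroxisomal) belong to type I, lie beside each other in the genome and are known targets of the fatty acid receptor PPARα. Acot8 is peroxisomal, Acot7 mainly cytosolic and best known from brain, and Acot9 mitochondrial. Acot11, also called brown-fat-inducible thioesterase, is known for its induction by cold in brown fat, and Acot13 is a small mitochondria-associated enzyme that binds a phosphatidylcholine transfer protein.

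The mice had the C57Bl6 background, and the labels name no immune defect. NTB mice had no tumour, and no antibody is stated for them. IgG1 mice carried tumours of HT1080, an established line of human fibrosarcoma cells, with IgG1 as the control antibody. 3P10 mice had the same tumour and were given 3P10, which binds GFRAL, the brain-stem receptor of the hormone GDF15. Both antibodies were given weekly at 3 mg per kg from day 0, and tissues were taken on day 21. Age, sex and the fat depot are not given in the sources used here. IgG1 against NTB therefore joins the tumour and the antibody, while 3P10 against IgG1 varies the antibody in tumour-bearing mice. The 47 libraries comprised 17 of brown fat (6 NTB, 5 IgG1 and 6 3P10), 15 of white fat and 15 of muscle (5 of each group).

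Depth differed by kit. Brown fat libraries, made by tagging the 3-prime end of each transcript, held 798886 to 2459761 counts, against 18621423 to 80661547 counts in white fat and 24759436 to 33502175 counts in muscle. Levels are CPM, counts per 1000000 counts of the library, scaled by TMM, a factor that corrects for library composition. A count of 0 allows up to 3 counts, counting error only. That limit was 1.25 to 3.68 CPM for brown fat libraries, 0.0395 to 0.161 CPM for those of white fat and 0.0838 to 0.143 CPM for those of muscle. Ucp1, the uncoupling protein of brown fat, was at 2794 to 5749 CPM in brown fat, and the muscle creatine kinase Ckm at 24473 to 48500 CPM in muscle. Both tissues thus held their defining marker, and the 10 white adipocyte markers summed to 39454 to 57100 CPM in white fat. Some libraries stood apart. In muscle, 4 libraries (replicate 3 of NTB, replicates 2 and 4 of IgG1, and replicate 2 of 3P10) had scores of 51.7 to 57.6 on the first principal component, which held 42.3% of the variance. The other 11 scored -29.3 to -2.71. Per the label numbers these 4 are numbered 14, 15, 16 and 23, above all others of that tissue. In white fat, IgG1 replicates 2 and 4 (numbers 14 and 23) held 3286 and 3143 CPM of Ucp1, and the remaining 13 held 37.1 to 712 CPM. Replicate 4 was also the deepest library and held 283 CPM of the epidermal keratin Krt14, against at most 0.818 CPM in the other white fat libraries.

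Type I genes share stretches of sequence, which bears on how reads are split among them. Of all 100-base windows of the transcript, 21.9% in Acot1, 17.1% in Acot2, 16.6% in Acot3 and 8.85% in Acot4 occurred in another gene's transcripts too. None of the windows in the last 500 bases did for these 4 genes, where the brown fat tags lie. The share was 0 for Acot7 and Acot13, 0.968% for Acot9 (with Acot10), 15.6% for Acot11 (with Fam151a) and 13.8% for Acot8 (with Snx21, and 36.2% in its last 500 bases). Levels of Acot1, Acot2, Acot3, Acot4, Acot8, Acot9 and Acot11 are uncertain to that extent.

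The type I genes lie on chromosome 12 in the order Acot2, Acot1, Acot4, Acot3, Acot5, Acot6. The 250 bases before the start of 3 of these neighbours, Acot2, Acot3 and Acot4, are shown, from RefSeq on GRCm38.p6, as the place where a fatty acid receptor would be looked for. Capitals mark a match to the hexamer AGGTCA on either strand, the building block of nuclear receptor sites.
Acot2 (chr12:83987611-83987860, plus strand): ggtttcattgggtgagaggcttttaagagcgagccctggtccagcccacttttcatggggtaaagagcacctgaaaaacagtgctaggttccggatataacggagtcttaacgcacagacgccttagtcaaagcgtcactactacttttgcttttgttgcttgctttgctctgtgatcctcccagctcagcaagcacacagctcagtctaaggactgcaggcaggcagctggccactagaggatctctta
Acot3 (chr12:84051894-84052143, plus strand): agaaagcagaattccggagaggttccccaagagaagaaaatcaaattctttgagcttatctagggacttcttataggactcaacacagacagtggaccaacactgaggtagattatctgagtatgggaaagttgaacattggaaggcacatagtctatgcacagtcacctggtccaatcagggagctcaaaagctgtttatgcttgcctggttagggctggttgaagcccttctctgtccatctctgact
Acot4 (chr12:84038129-84038378, plus strand): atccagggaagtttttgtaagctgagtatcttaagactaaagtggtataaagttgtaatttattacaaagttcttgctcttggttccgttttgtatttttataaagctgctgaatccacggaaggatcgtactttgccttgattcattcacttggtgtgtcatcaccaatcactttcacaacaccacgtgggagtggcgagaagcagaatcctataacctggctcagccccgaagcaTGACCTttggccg
The paired motif AGGTCANAGGTCA, searched on both strands, was absent from this window of the 8 genes found in the table (all but Acot13) and present in 0.0335% of 32851 mouse promoters of the same length. The single hexamer was found in 14% of promoters. Among these 8 genes it occurred only in Acot4, as TGACCT on the plus strand, 13 to 8 bases before the start. These letters describe the window and do not bear on whether a factor binds there.

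In white fat the type I thioesterases were far apart between groups. IgG1 against NTB there is the comparison that chose the genes, so its values are a description with no test. Acot2, the mitochondrial enzyme, stood at 40.1, 38.6, 37.0, 26.2 and 37.4 CPM in the NTB libraries, at 85.4, 71.7, 65.4, 81.4 and 62.7 CPM in the IgG1 libraries and at 43.2, 46.1, 30.1, 43.8 and 47.9 CPM in the 3P10 libraries. Every IgG1 library lay above every other library, while NTB and 3P10 overlapped. The means were 35.9 ± 5.55, 73.3 ± 9.87 and 42.2 ± 7.02 CPM (SD, n = 5 each), which came to 1.03 on the log2 scale (SE 0.14) for IgG1 against NTB. Without IgG1 replicates 2 and 4, the Ucp1-rich libraries, it was 0.99.

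Acot3, the peroxisomal long-chain enzyme, was close to the limit of detection in white fat without a tumour. Its levels were 0, 0.486, 0.0846, 0.215 and 0.226 CPM in NTB, 2.67, 7.24, 1.25, 6.75 and 3.98 CPM in IgG1 and 0, 0.360, 0.194, 1.29 and 0.621 CPM in 3P10. The NTB libraries held 25 reads together and the IgG1 libraries 905. NTB and IgG1 did not overlap, and the highest 3P10 library reached just above the lowest IgG1 library. The log2 fold change for IgG1 against NTB was 4.46 (SE 0.88), with 5.11 when NTB replicate 2 was left out, 3.72 without both Ucp1-rich libraries and 3.50 without the 4 libraries numbered 14 and higher.

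Acot4, which acts on short dicarboxylic acyl-CoAs in peroxisomes, showed the same order with tighter groups. Its NTB libraries were at 3.55, 10.2, 9.67, 5.99 and 9.15 CPM, its IgG1 libraries at 26.9, 25.8, 20.9, 27 and 21.8 CPM and its 3P10 libraries at 9.04, 15.2, 3.96, 11.8 and 10.2 CPM. IgG1 overlapped neither other group. IgG1 against NTB was 1.67 (SE 0.31) on the log2 scale, and 1.59 without both Ucp1-rich libraries.

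Acot1, the cytosolic relative of Acot2, varied widely within the IgG1 group. It was at 1.56, 2.02, 0.508, 0.431 and 0.408 CPM in NTB, at 3.23, 14.3, 3.66, 15.5 and 4.43 CPM in IgG1 and at 1.49, 0.240, 0.194, 4.67 and 1.76 CPM in 3P10. IgG1 and NTB did not overlap. The log2 fold change was 3.05 (SE 0.79), and it was 1.93 without both Ucp1-rich libraries, which held the highest levels. Summed over Acot1 to Acot4, a total that does not depend on how reads are split among these 4, the type I level was 32.8 to 51.4 CPM in NTB, 91.3 to 131 CPM in IgG1 and 34.5 to 61.9 CPM in 3P10. Acot2, chosen for being high in IgG1, held 60.2% to 88.7% of the type I reads in the white fat libraries. The sum thus largely repeats Acot2.

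The other white fat thioesterases moved little or followed the Ucp1-rich libraries. Acot11 stood at 82.8, 25.3, 11.3, 36.6 and 61.7 CPM in NTB, at 6.70, 427, 3.91, 327 and 176 CPM in IgG1 and at 141, 20.3, 9.62, 90.6 and 36.2 CPM in 3P10. The IgG1 group held both the lowest and the highest white fat libraries. The log2 fold change for IgG1 against NTB was 2.11 (SE 1.03), and 0.52 without both Ucp1-rich libraries. Acot13 was likewise highest there. Those libraries held 108 and 112.4 CPM of it, the remaining IgG1 libraries 43.1 to 69.5 CPM and the NTB libraries 44.1 to 75.5 CPM. Acot9 was the member with lower IgG1 than NTB libraries and no overlap (37.7 ± 2.41 against 44.0 ± 2.27 CPM, SD, n = 5 each, log2 fold change -0.22). Acot7 (log2 fold change -0.15, SE 0.13) and Acot8 (0.21, SE 0.23) overlapped.

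At least 2-fold differences, all higher in IgG1, were present in 5 of the 9 genes: Acot1, Acot2, Acot3, Acot4 and Acot11. Acot2 and Acot3 were chosen for being high there, so this count is partly fixed by the choice. Of 14402 genes tested in white fat, 8.96% differed by at least 2-fold, and 3.61% were higher to that extent. The count was 3 without both Ucp1-rich libraries, where 1.63% of all genes were at least 2-fold higher. It was 3 again without the 4 libraries numbered 14 and higher, where the share of all genes was not computed. The median log2 fold change of the 9 genes was 1.03, and of all genes -0.01. That median is the value of Acot2 itself, so it does not speak for the family. Of the cell markers, the summed level of the 10 of fibroblasts and preadipocytes was lower in IgG1 than in NTB without overlap. Singly, 6 of the 10 were at least 2-fold lower, where 5.35% of all genes were. The 10 summed to 2843 to 4460 CPM in NTB, 741 to 1902 CPM in IgG1 and 1681 to 3420 CPM in 3P10. The 10 macrophage markers summed to 316 to 578, 195 to 413 and 356 to 752 CPM in the same order, with overlap. The 12 brown and beige adipocyte markers summed to 325 to 1404, 223 to 6090 and 275 to 1385 CPM in that order, and the 10 white adipocyte markers to 39454 to 48364, 44145 to 57100 and 40290 to 46356 CPM. Both of these overlapped between the groups. None of the genes in these lists was at 0 throughout, and their part in the thioesterase levels was not tested. In bulk tissue, fewer cells of a type and less RNA per cell cannot be told apart.

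**Figure D1:**
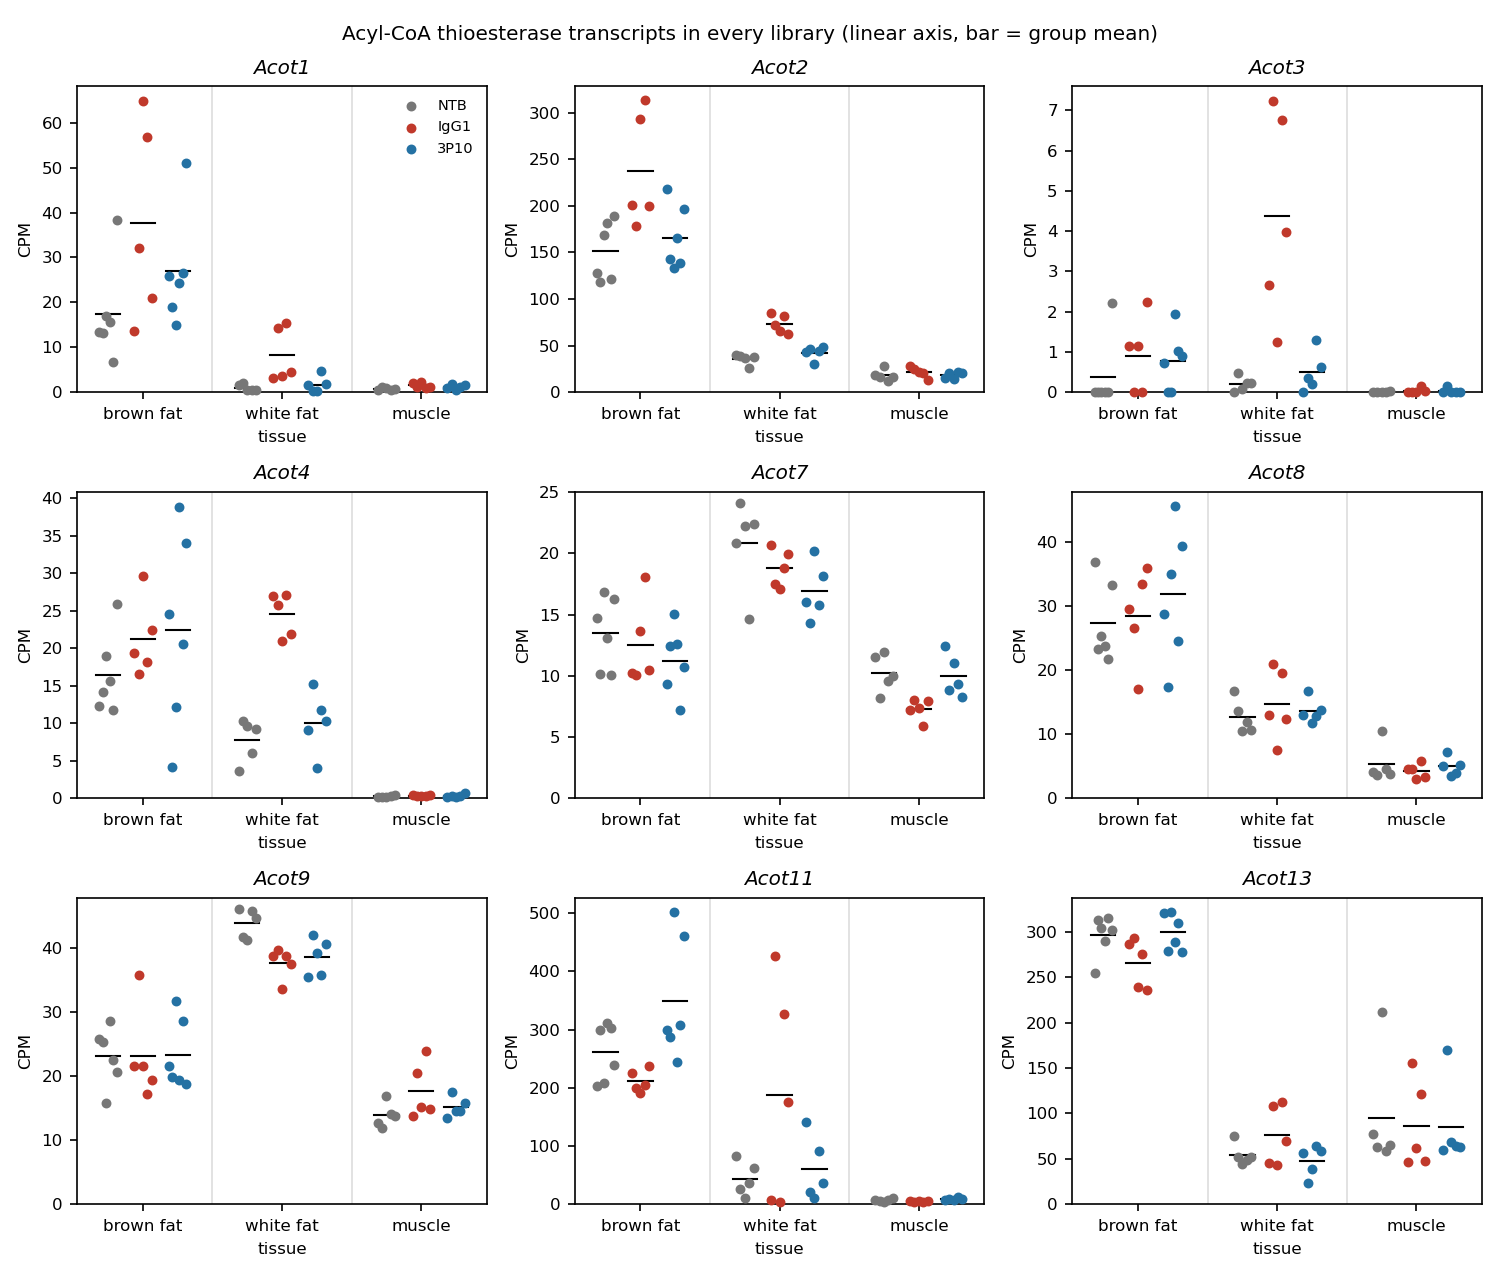
Level of each thioesterase gene in CPM (linear axis from 0) in every library, by tissue and by group (NTB grey, IgG1 red, 3P10 blue), with a bar at each group mean. In white fat the 5 IgG1 libraries of Acot2 lie between 62.7 and 85.4 CPM, above all other white fat libraries.

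The plot of Acot11, Acot3, Acot4 and Acot2 against Ucp1 sets the white fat libraries out by how much of the brown-fat marker they held. IgG1 replicates 1 and 3, which held 73.6 and 37.1 CPM of Ucp1, had the lowest Acot11 of the group, at 6.70 and 3.91 CPM. The same libraries held 85.4 and 65.4 CPM of Acot2 and 26.9 and 20.9 CPM of Acot4, above every NTB library. Their Acot3 was the lowest of the group, at 2.67 and 1.25 CPM, against 7.24 and 6.75 CPM in the Ucp1-rich libraries. Their Acot1, which is not plotted, was the lowest too, at 3.23 and 3.66 CPM, against 14.3 and 15.5 CPM. These Acot3 and Acot1 levels also lay above every NTB library.

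**Figure D2:**
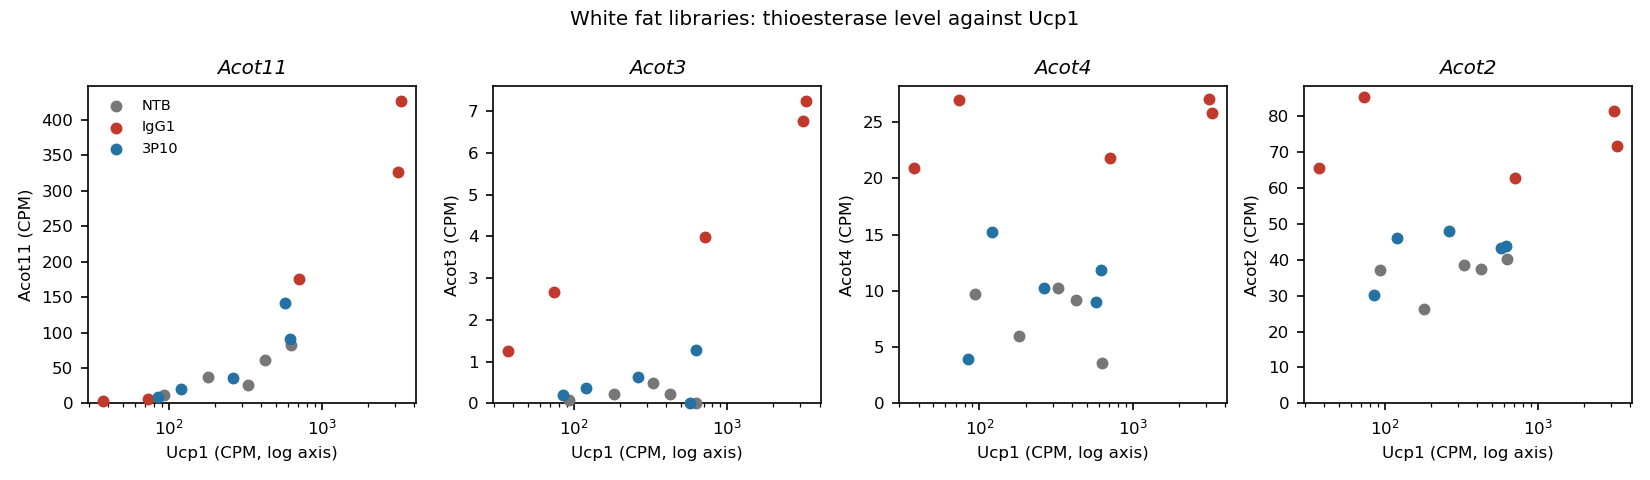
Level of Acot11, Acot3, Acot4 and Acot2 (CPM, linear axes) against Ucp1 (CPM, log axis) in the 15 white fat libraries, NTB grey, IgG1 red and 3P10 blue. The IgG1 libraries with 37.1 and 73.6 CPM of Ucp1 are low for Acot11 and lie above the NTB libraries for Acot2 and Acot4. For Acot3 they are the lowest of the IgG1 group and still lie above the NTB libraries.

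With GFRAL blocked, Acot4 of white fat was lower than with the control antibody. Acot4 fell in 3P10 against IgG1, by 1.29 on the log2 scale (SE 0.31, adjusted p = 0.0285, 5 of 5 libraries below the IgG1 mean, no overlap). It was the only call among the 7 genes tested, and 7.42% of all genes tested were called. Acot2 was at -0.80 (SE 0.14) and Acot3 at -3.19 (SE 0.81), given without a test because they share libraries with the choice of genes. The tests of the other members use those IgG1 libraries too. Acot4 and Acot1 were already seen to be high in them against NTB, so their p-values are not independent of that comparison. Without 3P10 replicate 4 the Acot3 value was -3.88, and without the 4 libraries numbered 14 and higher it was -2.37. Acot1 was at -2.32 (SE 0.77, adjusted p = 0.072) and Acot13 at -0.66 (SE 0.30, adjusted p = 0.168), so neither passed the test. The Acot4 call was lost without 3P10 replicate 1 or 3 or IgG1 replicate 2 or 4 (adjusted p of 0.0552 to 0.0659), with only the compared groups fitted (log2 fold change -1.30, adjusted p = 0.0614), and without both Ucp1-rich libraries (-1.21, adjusted p = 0.142). The fold change ran from -1.50 to -1.10 when single libraries were left out. Calls among all genes dropped from 1068 to 15 without both Ucp1-rich libraries. They dropped to 0 without the 4 libraries numbered 14 and higher (2321 at an unadjusted p under 0.05), where Acot4 was at -1.41 with adjusted p = 0.135.

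Against tumour-free mice, no thioesterase of 3P10 white fat passed the test, among the 7 tested. At an unadjusted p under 0.05 there were 2, Acot7 (log2 fold change -0.30) and Acot9 (-0.19). The share called among all genes was 0%, with 542 genes at an unadjusted p under 0.05 and 19 called by DESeq2, none of them among the 7. Acot2 was 0.23 (SE 0.14) and Acot3 was 1.26 (SE 0.89) on the log2 scale, without a test. IgG1 against NTB and 3P10 against IgG1 use the same IgG1 libraries, so their opposite signs are not independent.

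In brown fat Acot2 rose in IgG1 against NTB and fell in 3P10 against IgG1, and Acot11 rose in 3P10 against IgG1. The stated reason for choosing the genes concerns white fat, though earlier results of all tissues were known. Acot2 ranged from 119 to 189 CPM in NTB (median 148), from 179 to 314 CPM in IgG1 (median 201) and from 133 to 218 CPM in 3P10 (median 154). All 5 IgG1 libraries lay above the NTB mean, and the groups overlapped at their edges. The means were 151 ± 32.2 (SD, n = 6), 237 ± 61.4 (SD, n = 5) and 166 ± 34.5 CPM (SD, n = 6). Acot2 rose in IgG1 against NTB by 0.64 on the log2 scale (SE 0.17, adjusted p = 0.0394), the only call among 8 genes tested, where 2.97% of all genes were called. It fell by 0.52 in 3P10 against IgG1 (SE 0.17, adjusted p = 0.0446, 6 of 6 libraries below the IgG1 mean). Both calls rest on small margins.

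The first was lost in 7 of 17 fits that each left out 1 library (IgG1 replicates 3, 4 and 5 and NTB replicates 1, 2, 3 and 5, adjusted p up to 0.126), with only the compared groups fitted (log2 fold change 0.64, adjusted p = 0.0512), and with a muscle marker score as a covariate (0.60, adjusted p = 0.0749). The fold change ran from 0.518 to 0.730 over the 17 fits. The second was lost in 6 of 17 such fits (3P10 replicates 2 to 5 and IgG1 replicates 3 and 4, up to 0.134), with fold changes from -0.609 to -0.392 over the 17. The 14 skeletal muscle markers summed to 849 to 3140 CPM in NTB, 210 to 2428 CPM in IgG1 and 34.8 to 2462 CPM in 3P10, with none at 0 throughout.

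Acot11, the thioesterase named for brown fat, ranged from 202 to 311 CPM in NTB (median 270), from 191 to 237 CPM in IgG1 (median 204) and from 244 to 501 CPM in 3P10 (median 303). The lowest 3P10 library lay above the highest IgG1 library. Means were 261 ± 49.8 (SD, n = 6), 212 ± 19 (SD, n = 5) and 350 ± 104 CPM (SD, n = 6). Acot11 rose in 3P10 against IgG1 by 0.73 on the log2 scale (SE 0.16, adjusted p = 0.0061), 1 of 2 genes called among 8, where 11.6% of all genes were called. It was called in all 17 fits that left out 1 library (adjusted p of 0.00273 to 0.0207). Ucp1 was at 3393 to 4586 CPM in NTB, 2794 to 3220 CPM in IgG1 and 3560 to 5749 CPM in 3P10, so its 3P10 and IgG1 libraries did not overlap either. The 12 brown and beige markers summed to 11458 to 14288, 11868 to 13490 and 12413 to 16967 CPM, and their part in the Acot11 value was not tested.

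The remaining brown fat thioesterases passed no test. Acot1 was at a median of 14.5 CPM in NTB, 32.1 CPM in IgG1 and 25.1 CPM in 3P10, and its log2 fold change was 1.05 (SE 0.40, adjusted p = 0.151) for IgG1 against NTB. Acot13 stayed within 235 to 322 CPM in all 17 libraries. Acot4, Acot7, Acot8 and Acot9 ranged from 4.15 to 45.7 CPM, with absolute log2 fold changes of at most 0.36 in the 3 comparisons. Acot3 had 13 reads in all 17 libraries, too few to compare. In 3P10 against NTB none of the 8 genes was called, where 5.75% of all genes were, and Acot11 alone had an unadjusted p under 0.05 (log2 fold change 0.43, SE 0.15, adjusted p = 0.0993). Of all 8711 genes tested, 1917 had an unadjusted p under 0.05 there. DESeq2 called none of the 8 thioesterases either.

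Muscle held little of the type I enzymes apart from Acot2, and no thioesterase passed the test in any of its 3 comparisons. Acot2 was at 18.3, 16.7, 28.4, 11.5 and 15.7 CPM in NTB, at 27.8, 24.8, 21.6, 20.5 and 12.5 CPM in IgG1 and at 14.8, 20.3, 14.6, 21.1 and 20.3 CPM in 3P10. The groups overlapped throughout, and IgG1 against NTB was 0.24 (SE 0.23, adjusted p = 0.611). Acot2 was at -0.23 (SE 0.23, adjusted p = 0.818) in 3P10 against IgG1 and at 0.01 (SE 0.23, adjusted p = 1) in 3P10 against NTB. Acot3 had at most 0.153 CPM and Acot4 at most 0.670 CPM in any muscle library.

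In muscle Acot7 separated IgG1 from both other groups and Acot11 separated 3P10 from IgG1. Both are named after their values were seen, and neither passed the test. The share of all genes whose libraries separate in the same way was not computed. Acot7 was at 11.5, 8.19, 11.9, 9.57 and 10.0 CPM in NTB, at 7.24, 7.98, 7.38, 5.88 and 7.97 CPM in IgG1 and at 12.4, 8.83, 11, 9.36 and 8.30 CPM in 3P10. The IgG1 libraries lay below all others. The log2 fold changes were -0.49 for IgG1 against NTB (SE 0.15, adjusted p = 0.0618, and 0.0221 by DESeq2) and 0.45 for 3P10 against IgG1 (SE 0.15, adjusted p = 0.237). Acot11 was at 7.68, 5.71, 3.34, 6.43 and 9.90 CPM in NTB, at 4.90, 3.36, 5.91, 3.25 and 5.22 CPM in IgG1 and at 6.98, 8.83, 6.81, 11.6 and 8.83 CPM in 3P10. Every 3P10 library lay above every IgG1 library (log2 fold change 0.93, SE 0.25, adjusted p = 0.149, and 0.0275 by DESeq2). Among the 11 muscle libraries that did not stand apart, Acot7 was at -0.38 in IgG1 against NTB (adjusted p = 0.162) and Acot11 at 0.68 in 3P10 against IgG1 (adjusted p = 0.193). The 10 fibroblast and preadipocyte markers summed to 981 to 1216 CPM in NTB muscle, 517 to 850 CPM in IgG1 and 597 to 819 CPM in 3P10, and their part in these values was not tested.

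Acot13 and Acot9 separated the 4 muscle libraries that stood apart from the rest, whatever their group. These 4 were picked on the first principal component of the same data, which held 42.3% of the variance. Many genes are therefore bound to separate them, and the share of all genes that do was not computed. Acot13 was at 121 to 211 CPM in the 4 and at 46.2 to 77.6 CPM in the other 11. Acot9 was at 16.9 to 23.9 CPM against 11.9 to 15.8 CPM. Acot13 differed little between the groups (95.2 ± 65.3, 86.6 ± 49.0 and 85.0 ± 47.8 CPM in NTB, IgG1 and 3P10, SD, n = 5 each). Of the 7 genes tested, the counts at an unadjusted p under 0.05 were 4 for IgG1 against NTB, 2 for 3P10 against IgG1 and 0 for 3P10 against NTB. DESeq2 called 1, 1 and 0. Shares called among all genes were 5.6%, 0.211% and 0%. Of all 13283 genes tested, 2764, 1430 and 563 were at an unadjusted p under 0.05 in the same order, and DESeq2 called 1326, 284 and 15.

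**Figure D3:**
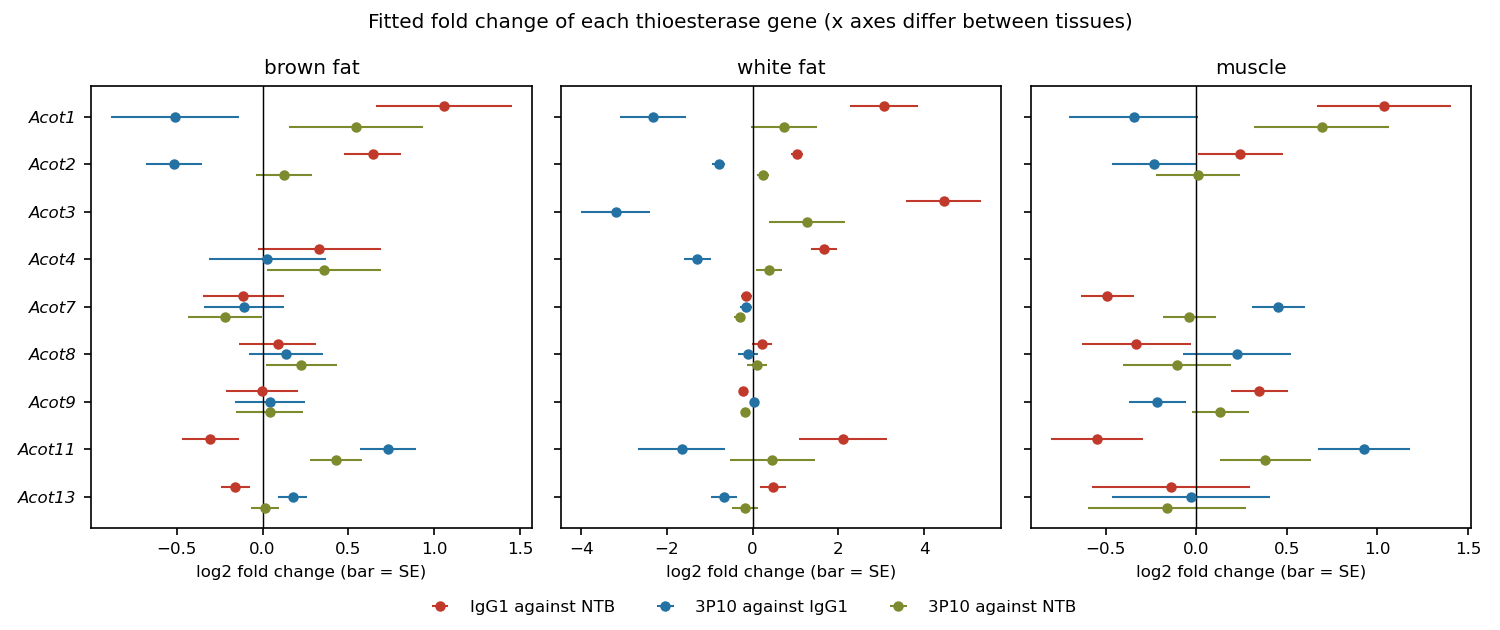
Fitted log2 fold change (bar = SE) of each thioesterase gene in brown fat, white fat and muscle for IgG1 against NTB (red), 3P10 against IgG1 (blue) and 3P10 against NTB (olive); genes that failed the low-count filter are absent. In white fat Acot1, Acot3 and Acot4 lie to the right for IgG1 against NTB and to the left for 3P10 against IgG1, while the brown fat and muscle values, on a narrower axis, reach at most 1.05 in size.

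Levels per kilobase of transcript give the order of the members within a tissue. In tumour-free white fat it ran from Acot13 (75.5 ± 16.9 CPM per kilobase) over Acot9 (25.1 ± 1.30), Acot2 (16.3 ± 2.53), Acot7 (13.9 ± 2.43), Acot8 (11 ± 2.26), Acot11 (7.65 ± 5.04), Acot4 (1.24 ± 0.46) and Acot1 (0.434 ± 0.332) to Acot3 (0.059 ± 0.0537, SD, n = 5 for each). Neighbours from Acot2 to Acot11 overlapped in their library ranges, as did Acot4 and Acot1. In tumour-free muscle Acot13 was again first (132 ± 90.6 CPM per kilobase), followed by Acot2 (8.24 ± 2.85), Acot9 (7.92 ± 1.08), Acot7 (6.81 ± 1.01), Acot8 (4.63 ± 2.56), Acot11 (1.16 ± 0.43), Acot1 (0.315 ± 0.101), Acot4 (0.043 ± 0.0201) and Acot3 (0.00225 ± 0.00504). In muscle the library ranges of the neighbours from Acot2 to Acot8 overlapped.

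The tumour-free libraries of muscle and white fat carry the same label numbers and may come from the same mice, which the labels do not say. In the fit of tumour-free muscle against tumour-free white fat, 4 of 8 genes were called, where 74.1% of all genes were. Acot13 was higher in muscle, by 1.78 (SE 0.34, adjusted p = 0.000452) on the log2 scale. Acot4 (-3.88, SE 0.38, adjusted p = 1.58e-06), Acot11 (-1.73, SE 0.45, adjusted p = 0.00414) and Acot9 (-0.69, SE 0.11, adjusted p = 0.000103) were lower in muscle. Acot2 was at -0.01 (SE 0.20, adjusted p = 0.953), with a sign that changed under the RLE scaling (0.03). With the number as a replicate block Acot13 (1.58, adjusted p = 0.00212), Acot4 (-3.84), Acot11 (-1.54) and Acot9 (-0.70) were called.

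The rest of the acyl-CoA machinery was read from lists of named genes, including synthetases and oxidation enzymes. The lists share some genes, so their counts are not separate. Acaa2, for example, is in the mitochondrial and the PPAR-responsive list. In white fat, IgG1 against NTB, at least 2-fold higher levels occurred in 7 of 18 acyl-CoA synthetases, 7 of 18 mitochondrial beta-oxidation genes, 1 of 18 peroxisomal ones and 10 of 21 PPAR-responsive genes, with none lower. Of all genes, 3.61% were higher to that extent. Examples are the fatty acid transporter and synthetase Slc27a2 (mean of 73.7 against 7.73 CPM, SE of the log2 fold change 0.95), the medium-chain synthetase Acsm3 (208 against 56.6 CPM, SE 0.50) and the thiolase Acaa2 (1064 against 399 CPM, SE 0.55). Of 14 genes of coenzyme A synthesis and breakdown 2 were higher, among them Pank1, which starts the synthesis (138 against 34.6 CPM, SE 0.71). Median log2 fold changes of the first 4 lists were 0.61, 0.84, 0.29 and 0.97, against -0.01 for all genes. The IgG1 group holds both Ucp1-rich libraries, and all 11 brown and beige markers tested, Pank1 among them, were at least 2-fold higher as well. Without those libraries, an omission chosen after seeing the data, the counts were 3 of 18 synthetases, 0 of 18 mitochondrial, 0 of 18 peroxisomal and 2 of 21 PPAR-responsive genes (1.63% of all genes), and the medians were 0.16, 0.17, 0.20 and 0.19 (-0.02 for all genes).

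In white fat, 3P10 against IgG1, 4 of 18 synthetases and 4 of 18 mitochondrial genes fell, with 1 of 18 peroxisomal and none of 21 PPAR-responsive genes (3.46% of all genes fell). Among them were Slc27a1 (-1.36, adjusted p = 0.0144), Eci2 (-0.70, adjusted p = 0.0197), an isomerase of unsaturated fatty acid oxidation, and Crat (-0.83, adjusted p = 0.0253), the carnitine acetyltransferase. Without both Ucp1-rich libraries edgeR called none of these lists' genes. At an unadjusted p under 0.05, 5 of 18 synthetases, 2 of 18 mitochondrial, 2 of 18 peroxisomal and 1 of 21 PPAR-responsive genes were lower. Of all 14620 genes tested in that fit, 2339 were at an unadjusted p under 0.05 in either direction.

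In brown fat the same lists gave a mixed picture. For IgG1 against NTB, 1.86% of all genes rose and 1.11% fell. Of 18 mitochondrial beta-oxidation genes 2 rose and 0 fell, Acadm (log2 fold change 0.45, adjusted p = 0.0235) and Echs1 (0.35, adjusted p = 0.0272). The coenzyme A hydrolase Nudt7 of peroxisomes rose as well (0.50, adjusted p = 0.0237). Of 11 synthetases 1 rose and 1 fell, of 16 peroxisomal genes 1 rose, and of 19 PPAR-responsive genes 2 rose and 1 fell.

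For 3P10 against IgG1 in brown fat, 6.05% of all genes rose and 5.58% fell. Of 11 synthetases 2 rose and 3 fell, of 16 peroxisomal genes 2 rose, and of 19 PPAR-responsive genes 3 rose and 1 fell. Of 18 mitochondrial genes 2 rose and 2 fell: Hadh was at 0.56 (adjusted p = 0.00281), Hadhb at 0.41 (adjusted p = 0.00654) and Echs1 at -0.38 (adjusted p = 0.00522). Ppara, the fatty acid receptor, rose from 653 to 1254 CPM (log2 fold change 0.94, SE 0.17, adjusted p = 0.00129), and so did Pank3 (0.59, adjusted p = 0.00229). Some markers of other cells moved there too: 3 of 8 fibroblast and preadipocyte markers fell (Dcn by 0.59, Cd34 by 0.66 and Pdgfrb by 0.48 on the log2 scale), 1 of 7 endothelial markers fell, and of 12 brown and beige markers 5 rose and 1 fell. The median log2 fold change of the 8 fibroblast and preadipocyte markers was 0.12, against -0.01 for all genes, so the list as a whole did not fall. The fibroblast markers summed to 534 to 897 CPM in IgG1 and 529 to 735 CPM in 3P10, and the endothelial ones to 587 to 1250 and 601 to 879 CPM. Their part in these values was not tested.

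In muscle no gene of the oxidation lists or of the PPAR-responsive list was called in any comparison. For mitochondrial beta-oxidation the median there was -0.25 in IgG1 against NTB (0.01 for all genes) and 0.26 in 3P10 against IgG1 (-0.02 for all genes).

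The genes whose levels ran most like Acot2 over the 17 brown fat libraries, by Pearson's r of log2 CPM, were Dnajc30 (0.89), Grina (0.87) and Bnip3 (0.86). Over the 15 white fat libraries they were Rcl1 (0.91), Tmem57 (0.90) and Slc27a1 (0.90), and for Acot3 they were C8g (0.94), Acad11 (0.92) and Abhd5 (0.92). These points share depth and group differences, and the values are a description.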

How the data were processed

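RNA was measured in 47 libraries of 3 tissues. The authors deposited read counts per gene, as whole numbers, in 1 table for brown fat and another for white fat and muscle. Per the submitters' processing notes, Trim Galore, STAR 2.6.0a, featureCounts 1.6.2 and edgeR 3.22.3 were used with the mm9 build. Per the labels' protocols, brown fat used a 3-prime tag kit with molecular identifiers, and whether counts were collapsed by identifier is not given in the sources used here. White fat and muscle used a directional kit.

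Counts were fitted with edgeR 4.0.16 in R 4.3.3 (TMM factors, filterByExpr with a minimum count of 10 and a minimum total of 15, glmQLFit and glmQLFTest, 2-sided). Each tissue had 1 model with 3 groups. The p-values were adjusted by Benjamini-Hochberg over all genes tested and called below 0.05. The SE is the absolute log2 fold change divided by the square root of F. DESeq2 1.42.0 was an alternative. Tests were checked on simulated data. Tables of separate kits were not compared.

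The 9 genes, the gene lists and the tests were chosen with earlier results of these data known. All 9 were described by level. Fold changes were given for called members, Acot2 and Acot3, and adjusted p for called members and for Acot2 outside white fat. Those of other members were chosen after their values were seen. From each list up to 3 genes with the smallest adjusted p, or the largest change in white fat for IgG1 against NTB, could be named, and for likeness the 5 highest correlations. No separate cultures or animals are named beyond the numbers in the labels, so p-values measure the spread between these samples. Replicate libraries differed beyond sampling noise in every pair (chi-square per degree of freedom at least 2.33). Promoters come from RefSeq, GRCm38.p6, and transcript lengths and shared windows from GENCODE annotation of GRCm38, which differs from the mm9 build of the counts.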

Additional observations from a re-analysis of the deposited data

Results flagged for a closer look

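Single libraries lay far from the rest of their group in 9 of 71 groups of 5 or 6 libraries checked (those with at least 10 reads per library on average), where chance gives about 1 in 20. In brown fat these were Acot1 in 3P10 replicate 6 (51.0 CPM) and NTB replicate 6 (38.4 CPM), both above the others, and Acot9 in IgG1 replicate 2 (35.7 CPM, above). In white fat they were Acot2 in 3P10 replicate 3 (30.1 CPM) and NTB replicate 4 (26.2 CPM), both below the others, and Acot13 in NTB replicate 1 (75.5 CPM, above). In muscle they were Acot8 in NTB replicate 3 (10.6 CPM) and Acot13 in 3P10 replicate 2 (170 CPM) and NTB replicate 3 (211 CPM), all above. Both of these muscle libraries are among the 4 that stood apart.

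For 3P10 against IgG1, Acot11 had every 3P10 library above the IgG1 mean in brown fat (log2 fold change 0.73) and in muscle (0.93), and every one below it in white fat (-1.66). Acot13 had every 3P10 library above the IgG1 mean in brown fat (0.17) and below it in white fat (-0.66). The white fat IgG1 means include both Ucp1-rich libraries. The difference between tissues was not tested.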

How the results depend on the processing

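Of 554 fold changes of single genes under the alternatives, 513 were counted as kept. Of the others, 23 lost a call, 2 gained one, 2 moved and 14 changed sign. Tested values were kept if their direction and their side of the threshold stayed. Untested values of white fat were kept if their direction stayed and they shifted by less than the SD within groups, whatever the 2-fold line. Acot11 in white fat, IgG1 against NTB, was thus counted as kept though it went as low as 0.27. Counts of called genes changed as follows. For brown fat, IgG1 against NTB, the count of 1 became 0 with only the compared groups or with the muscle marker score, and for 3P10 against IgG1 the count of 2 became 1 with a filter of 1 CPM in 5 libraries. For white fat, 3P10 against IgG1, the count of 1 became 2 by DESeq2, and 0 with only the compared groups, without both Ucp1-rich libraries, and without the 4 libraries numbered 14 and higher, an alternative chosen after seeing the data. The count of genes at least 2-fold different became 3 under both of these omissions, where Acot1 was at 1.93 and 1.75. In muscle DESeq2 gave 1 for IgG1 against NTB and 1 for 3P10 against IgG1, against 0. The cause of these changes was not tested, beyond the smaller number of samples.

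Leaving out 1 library at a time gave 0 to 1 called genes for brown fat IgG1 against NTB, 1 to 2 for brown fat 3P10 against IgG1 and 0 to 2 for white fat 3P10 against IgG1. Acot2 in muscle, 3P10 against NTB, ran from -0.116 to 0.241, and between tumour-free muscle and white fat from -0.250 to 0.101, with 0.0283 by DESeq2 and 0.0275 with RLE factors. Neither was called.

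Libraries with the same replicate number did not deviate together in every pair (correlations over 0.1 in 0 of 16 pairs in brown fat, 8 of 15 in white fat, 9 of 15 in muscle and 1 of 5 between tumour-free muscle and white fat). Within a tissue such libraries carry different label numbers, so the replicate number there is only an order. Between tumour-free muscle and white fat the label numbers match as well. These correlations cannot settle whether such libraries share more than a number. With the replicate number as a block, brown fat IgG1 against NTB had 2 called genes, Acot2 and Acot1. No other count of called thioesterases changed. Acot3 in white fat, 3P10 against NTB, could not be fitted with only the compared groups. Depth limits Acot3 in brown fat and Acot3 and Acot4 in muscle.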

Other observations

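The other type I genes at the same place on chromosome 12 were also present in white fat. Acot6 was at a median of 2.24 CPM in NTB, 3.69 CPM in IgG1 and 3.01 CPM in 3P10, and Acot5 at 0.226, 0.917 and 0.268 CPM. Acot12, a liver-type thioesterase that failed the low-count filter in brown fat, was at a median of 3.27 CPM in NTB, 9.94 CPM in IgG1 and 2.50 CPM in 3P10 there, with 22, 46 and 18 reads in all.

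In muscle the 10 white adipocyte markers summed to 437 to 1151 CPM in NTB, 610 to 1811 CPM in IgG1 and 524 to 1964 CPM in 3P10.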
